A study of Mus musculus with 12 samples.

Results

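The 38 genes described here encode proteins of mitosis and the mitotic spindle: the kinases and cyclins that drive entry into division, the kinetochore and its checkpoint, the spindle motors, the cytokinesis apparatus and the anaphase ubiquitination enzymes, together with the proliferation antigen Ki-67. They were chosen by gene symbol. All 38 were found among the 24982 genes listed for both cell types of the series, and all 38 passed the filter on low counts in every comparison, so no member was lost to that filter.

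Smart-Seq2, which amplifies full-length cDNA from little input, was used on bone marrow progenitors of the C57BL/6 strain, and by the series title the mice carried melanoma. There were 12 libraries, of LSK and of GMP, with 3 labelled control and 3 labelled STING agonist treatment in each cell type. LSK denotes the lineage-negative, Sca-1-positive, Kit-positive fraction that holds stem cells and early progenitors, and GMP denotes granulocyte-monocyte progenitors. The agonist was diABZI, a small molecule that activates the innate immune adaptor STING, and control mice are labelled only as control. The labels do not state the dose, the time of treatment, the age of the mice, the number of cells behind a library or the mouse each came from. Because separate mice are nowhere stated, p-values measure only how far these libraries vary, and part of that variation may be technical.

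Cells entering mitosis activate CDK1 with cyclin B, condense their chromosomes and build a bipolar spindle whose microtubules attach to the kinetochores. The spindle checkpoint holds the anaphase-promoting complex inactive until every chromosome is attached, and CDC20 then activates the complex so that securin and cyclin B are degraded. Most genes of this programme are transcribed late in the cell cycle: the DREAM complex represses them in resting and early cycling cells, and B-MYB and FOXM1 activate them in G2, through a promoter element called the CHR and through CCAAT boxes bound by NF-Y. In the bone marrow, most long-term stem cells are quiescent, whereas committed progenitors divide often. In bulk RNA, fewer dividing cells and less of these RNAs per cell cannot be told apart.

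The promoters share short sequence elements that the choice of genes did not use, and a few are printed to show how the CHR and CCAAT letters lie before the start. RefSeq promoter windows of 300 bases (250 before to 50 after the start, GRCm38.p6) were held for 31 members, in 34 windows. Aurkb, Ccna2, Cdc25c, Incenp, Kif20a, Spc24 and Tpx2 had none. The CHR was searched as TTTGAA or TTCGAA and the CCAAT box as CCAAT, both on either strand, so that TTCAAA and ATTGG are the same elements read from the other strand. In the lines that follow, up to 120 bases before the start are printed 5′ to 3′ on the gene's strand, stopping where the gene begins in the deposited positions, with matches in capitals.
Top2a (chr11:99024190-99024309, minus strand): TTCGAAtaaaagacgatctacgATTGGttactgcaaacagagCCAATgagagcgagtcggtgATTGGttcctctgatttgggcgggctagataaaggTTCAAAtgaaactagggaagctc
Mki67 (chr7:135716380-135716499, minus strand): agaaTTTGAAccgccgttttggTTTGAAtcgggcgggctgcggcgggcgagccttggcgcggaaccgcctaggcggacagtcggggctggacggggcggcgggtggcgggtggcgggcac
Ccnf (chr17:24251410-24251529, minus strand): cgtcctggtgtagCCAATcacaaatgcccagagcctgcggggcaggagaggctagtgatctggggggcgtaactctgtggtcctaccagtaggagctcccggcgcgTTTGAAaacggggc
Cdk1 (chr10:69352939-69353032, minus strand): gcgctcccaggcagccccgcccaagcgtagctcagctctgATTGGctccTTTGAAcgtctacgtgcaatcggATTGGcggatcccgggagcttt
Cdc20 (chr4:118437353-118437463, minus strand): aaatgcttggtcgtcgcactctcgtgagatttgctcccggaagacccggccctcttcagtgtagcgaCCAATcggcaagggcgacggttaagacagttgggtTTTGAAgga
Kif11 (chr19:37376262-37376381, plus strand): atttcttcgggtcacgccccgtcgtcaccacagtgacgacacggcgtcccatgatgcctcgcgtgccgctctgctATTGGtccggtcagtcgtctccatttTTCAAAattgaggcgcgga
Cenpf (chr1:189688087-189688206, minus strand): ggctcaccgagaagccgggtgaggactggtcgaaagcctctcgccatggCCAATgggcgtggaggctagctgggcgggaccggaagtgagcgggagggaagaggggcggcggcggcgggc
Hmmr (chr11:40733438-40733557, minus strand): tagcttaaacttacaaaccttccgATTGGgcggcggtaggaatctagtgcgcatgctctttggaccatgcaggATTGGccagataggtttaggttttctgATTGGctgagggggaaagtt
Birc5 (chr11:117849117-117849236, plus strand): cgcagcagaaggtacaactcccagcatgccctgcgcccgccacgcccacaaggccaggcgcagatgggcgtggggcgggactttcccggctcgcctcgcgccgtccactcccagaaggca
Top2a, which encodes the topoisomerase that untangles sister chromatids, has both elements in the stretch shown, and its full window held 6 CCAAT matches. In Cdc20 and Kif11 the CHR letters lie close to the start with a CCAAT match upstream. Cenpf and Hmmr show only CCAAT matches here, because their CHR letters fall 3 and 9 bases after the start. Birc5 holds neither in its window, which says only that these letters are not in these bases.

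A CHR match was present in 82.4% of the members' windows, compared with 19.2% of all 32851 mouse windows of the same length. Within 50 bases either side of the start, the shares were 73.5% of the members' windows and 5.31% of all windows. CCAAT was found in 79.4% of the members' windows and 37.4% of all windows, and 2 or more CCAAT matches in 55.9% and 11.7%. Both elements occurred together in 73.5% of the members' windows and 7.52% of all windows. Counted by gene, 25 of the 31 members had the CHR letters, 24 had CCAAT, and 4 had neither (Birc5, Mad2l1, Nuf2 and Nusap1). A match is a description of the letters and not a measured binding site.

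**Figure D1:**
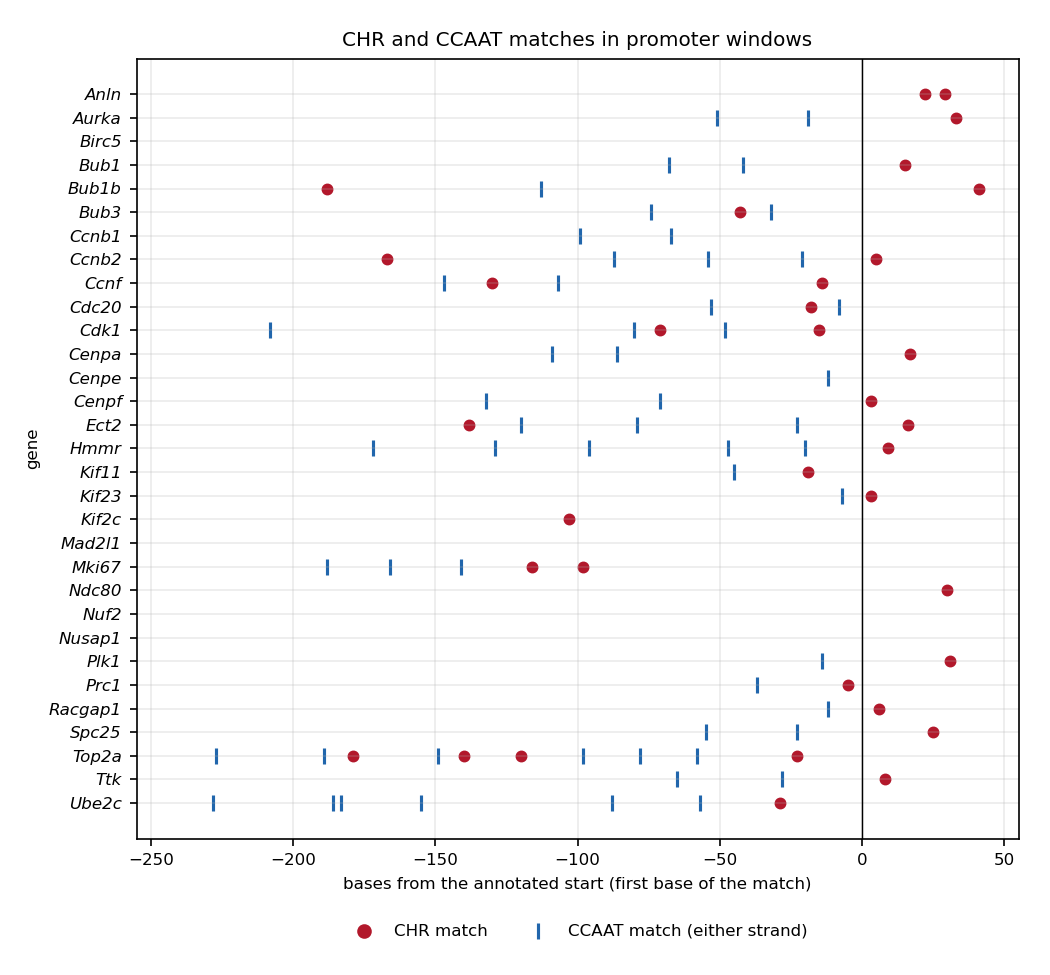
Positions of CHR (TTTGAA or TTCGAA) and CCAAT matches, on either strand, in the RefSeq promoter windows of the 31 members with a window; the horizontal axis is distance from the transcription start in bases and each row is 1 gene, with its first window by position where a gene has 2. The CHR matches crowd around the start, whereas the CCAAT matches spread over the bases before it, and 4 genes have no mark.

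Total counts per library ranged from 30649314 to 47225983. Genes with a count numbered from 15099 in LSK control library 2, the deepest, to 24971 in GMP agonist library 1, the shallowest. Levels are counts per 1000000 counts of the library (CPM), on one scale for all libraries. The GMP libraries carried the markers of their label: the 11 granulocyte-monocyte progenitor markers summed to between 39100 and 50348 CPM over the 6 GMP libraries and to between 493 and 11088 CPM over the 6 LSK libraries. For LSK several markers went against the label. Ly6a, which encodes the Sca-1 protein the sort is named for, averaged 0.609 ± 0.213 CPM in LSK controls and 6.71 ± 2.05 CPM after the agonist (SD, n = 3 each). In GMP it averaged 0.198 ± 0.316 CPM in controls and 21.1 ± 4.36 CPM after the agonist. The 11 stem cell markers summed to between 363 and 574 CPM in LSK controls and to between 248 and 327 CPM in GMP controls. After the agonist these sums overlapped, at 260.3 to 315 CPM in LSK libraries and 259 to 278 CPM in GMP libraries. Erythroid markers, 14 genes, summed to between 9782 and 15503 CPM in the LSK libraries and to between 194 and 277 CPM in the GMP libraries, with Car2 alone at 6951 ± 1318 CPM in LSK controls (SD, n = 3). These cells are therefore called LSK-labelled. None of the 14 erythroid markers was at 0 in all libraries of either LSK group.

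The 38 members together made up a larger part of the LSK-labelled libraries than of the GMP libraries. Their summed level was 4536 ± 639 CPM in LSK controls and 4279 ± 813 CPM in LSK libraries after the agonist, against 2915 ± 514 CPM in GMP controls and 2490 ± 148 CPM in GMP libraries after the agonist (SD, n = 3 each). The LSK control libraries gave 4349, 4011 and 5247 CPM and the LSK agonist libraries 4609, 4875 and 3353 CPM. The GMP control libraries gave 2509, 3492 and 2743 CPM and the GMP agonist libraries 2494, 2340 and 2636 CPM. Every control GMP library lay below every control LSK library, and among the treated libraries the same held, but LSK agonist library 3 lay below GMP control library 2. Within each cell type the control and agonist libraries overlapped.

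**Figure D2:**
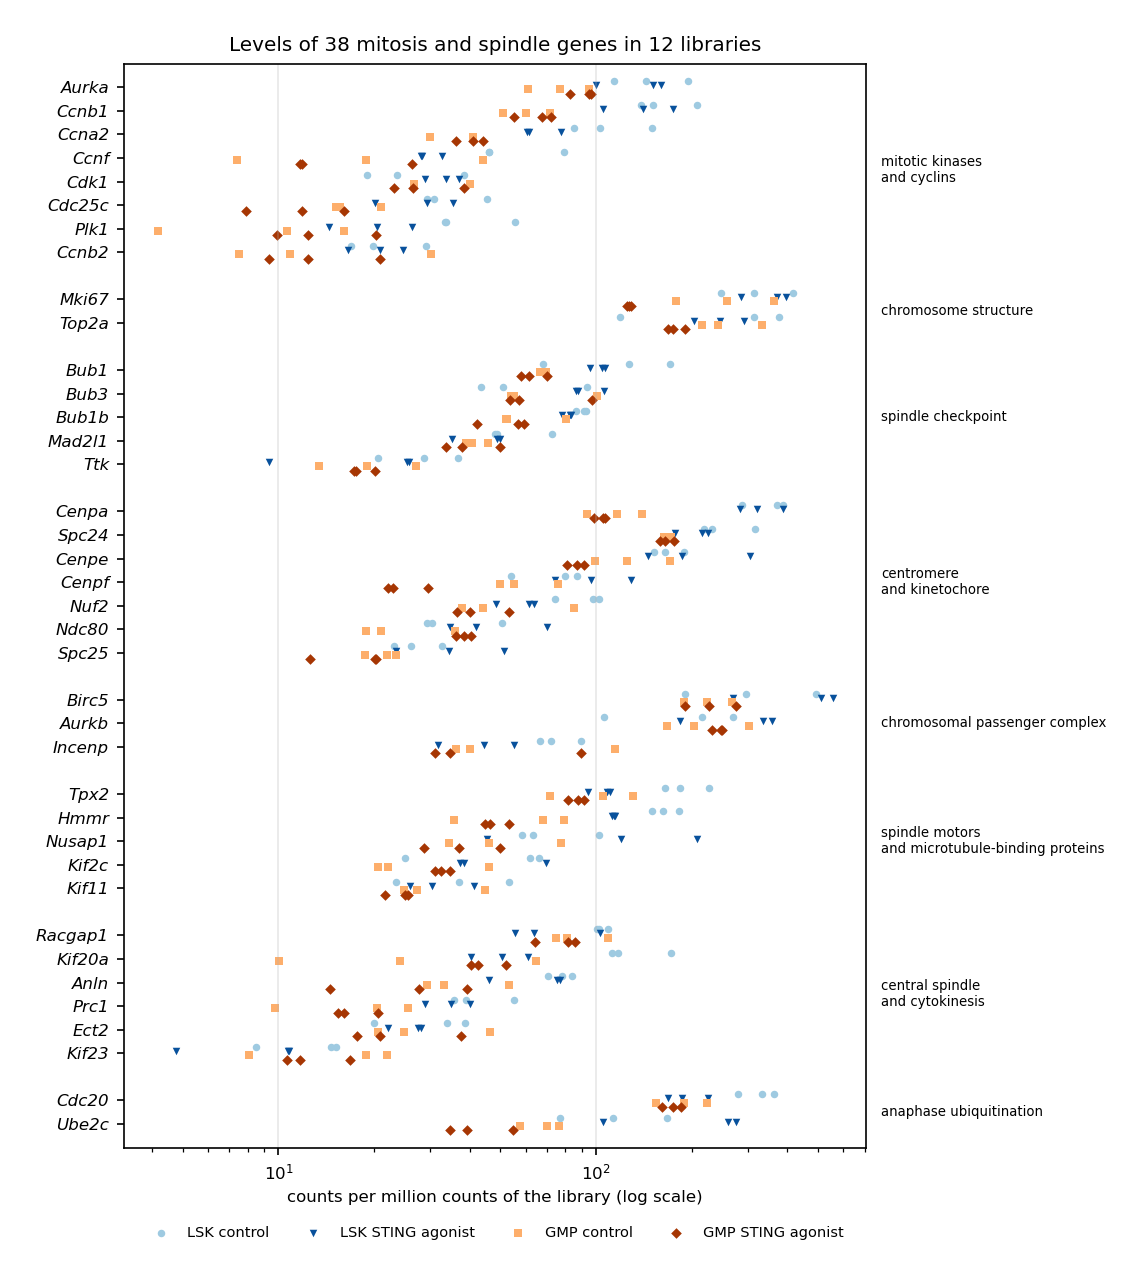
Levels of the 38 members in each of the 12 libraries (CPM, log scale), with the members ordered by role and the 4 groups in separate colours; each point is 1 library. The GMP points lie to the low side for Ccna2, Ccnb1, Cenpa and Hmmr and mix with the LSK points for Cdk1, Aurkb and Kif23.

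Levels were also divided by gene length, taken as the union of the exons of all annotated transcripts. That union was 1868 bases for Cdc20, 7901 for Kif23 and 8225 for Prc1. It can exceed the length of the transcripts present, so the order of genes depends partly on the annotation. On this scale the highest mean levels over the 12 libraries were those of Cdc20 at 118 CPM per kb, Birc5 at 90.3, Aurkb at 81.1 and Spc24 at 77.4. The lowest were Kif23 at 1.61 and Prc1 at 3.46 CPM per kb. Cdc20 is the activator of the anaphase-promoting complex, whereas Kif23 and Prc1 act at the central spindle during cytokinesis. Cdk1, the kinase at the centre of the programme, was at 6.11 CPM per kb.

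Among the control libraries, most of the members made up a smaller share of the counts in GMP than in LSK-labelled cells. The edgeR quasi-likelihood test, with Benjamini-Hochberg adjustment over all 16857 genes tested, called 10 of 38 members lower in GMP (26.3%) and 0 higher. Over all genes tested, 11.5% were called, 6.98% lower and 4.55% higher. The 10 were Cenpa, Ccna2, Hmmr, Ccnb1, Plk1, Kif20a, Tpx2, Cdc20, Aurka and Prc1. The fitted difference lay below 0 for 34 of 38 members, compared with 47.9% of all genes, and the exceptions were Cdk1, Aurkb, Bub3 and Kif23. The median log2 difference was −0.56 for the members and 0.04 for all genes. DESeq2 called 14 members (36.8%), against 19.6% of all genes. For 17 members (44.7%) every GMP control library lay below every LSK control library, against 14.9% of all genes, and for 0 members above, against 15.1%. With TMM-scaled levels 17 members lay below, against 15.2% of all genes.

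After the agonist, most members again had a smaller share in GMP than in LSK-labelled libraries, with a partly different set of called genes. Again 10 of 38 members were called lower by edgeR (26.3%) and 0 higher, where 4.85% of all genes were called lower and 4.57% higher. These were Cenpa, Cenpf, Mki67, Ube2c, Hmmr, Cenpe, Ccnb1, Anln, Cdc25c and Nusap1. Fitted differences lay below 0 for 35 of 38 members, against 49.5% of all genes, and the median was −0.6 for the members and 0.01 for all genes. Calls in either direction made up 9.42% of all genes, and DESeq2 called 15 members (39.5%), against 18.2% of all genes. For 21 members (55.3%) every treated GMP library lay below every treated LSK library, against 16.0% of all genes, and for 0 above, against 20.0%. With TMM-scaled levels 18 members lay below (47.4%), against 16.5% of all genes, and 0 above, against 19.6%. Cenpa, Hmmr and Ccnb1 were called in both comparisons, which is 30% of each list, 17 members were called in either and 21 in neither. Whether the cell type difference itself differed between control and treated mice is the interaction contrast described further on. That contrast called no member and 0 of 16857 genes. The erythroid markers moved with the cell type difference, and their part in these results was not tested.

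The calls rested on few libraries. Without GMP control library 3, 4 members were called in controls, without LSK control library 3, 5, and without LSK control library 2, 6. Among treated libraries, 6 were called without LSK agonist library 2 and 6 without GMP agonist library 2. Cenpa, Ccna2, Hmmr and Ccnb1 in controls, and Cenpa, Cenpf, Mki67, Ube2c, Hmmr and Cenpe after the agonist, were called in all 19 alternatives run. Prc1 was called in 8 of 19 alternatives, Nusap1 in 9 and Cdc25c in 10. The Prc1 call was lost without LSK control 2 or 3, LSK agonist 1, GMP control 1 or 3, or any one of the GMP agonist libraries, with an edgeR adjusted p of up to 0.153. Nusap1 was lost without LSK control 1, LSK agonist 1 or 2, GMP control 1 or 3, or any GMP agonist library, with an adjusted p of up to 0.224. Cdc25c was lost without LSK control 1, LSK agonist 1 or 2, GMP control 1 or 2, or any GMP agonist library, with an adjusted p of up to 0.185.

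**Figure D3:**
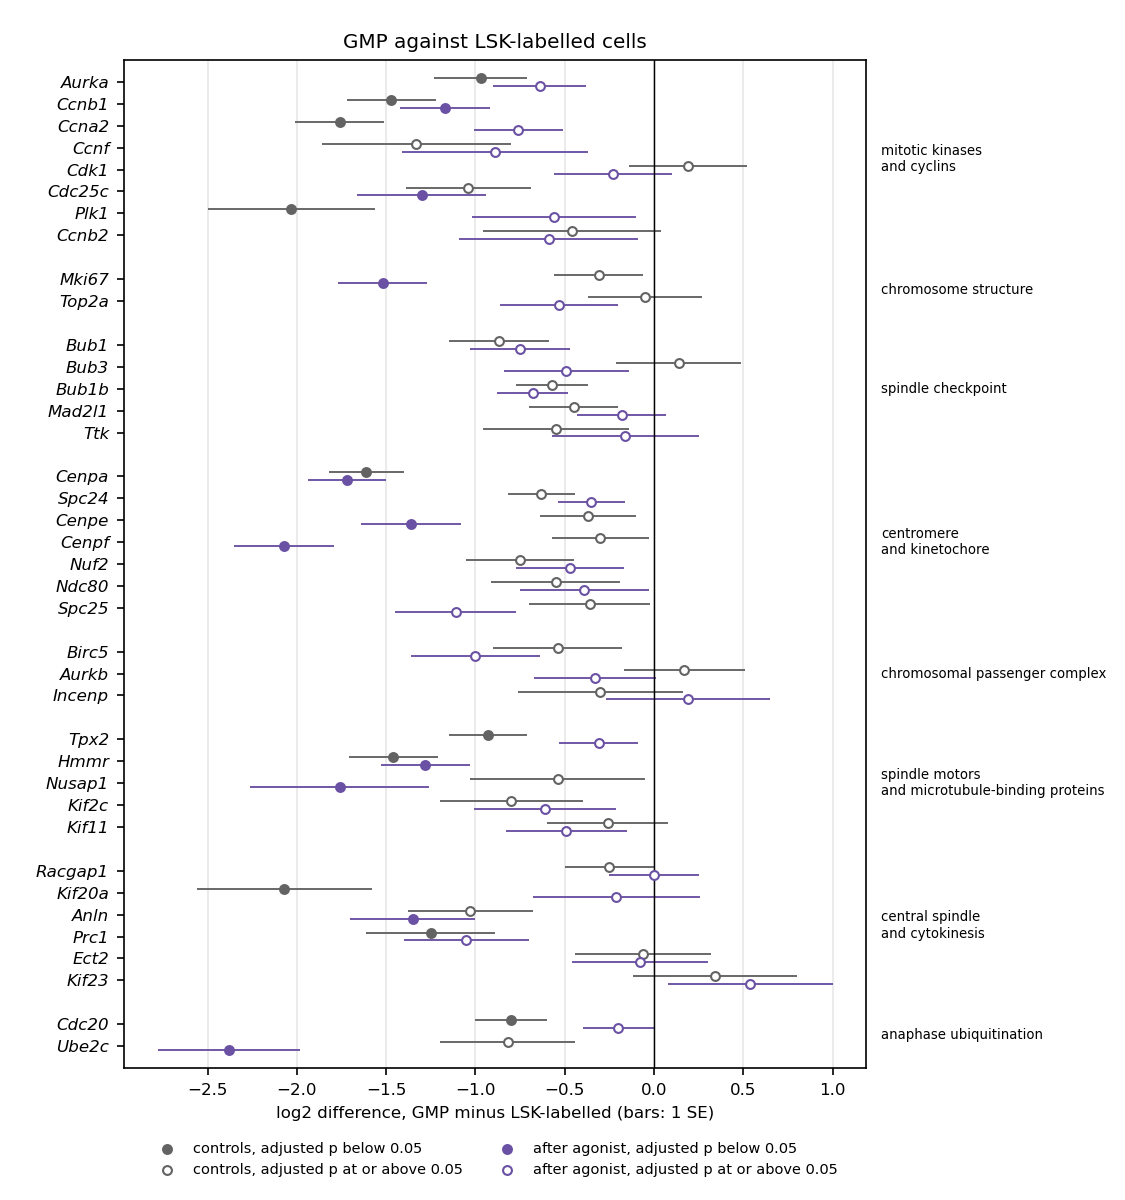
Fitted log2 difference between GMP and LSK-labelled libraries for each member, in controls and after the agonist, with bars of 1 standard error and called members filled; values left of 0 are lower in GMP. Most members lie left of 0 in both, with Cenpa at −1.61 and −1.72 and Kif20a at −2.07 in controls and −0.21 after the agonist.

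The kinase and cyclin group, 8 members including the phosphatase Cdc25c, had the lowest group median in controls, −1.18 on the log2 scale. Of these, 4 were called lower in controls (Ccna2, Ccnb1, Plk1 and Aurka), against 6.98% of all genes. Ccna2 encodes cyclin A2, which partners CDK2 and CDK1 from S phase to early mitosis (chromosome 3, 36564865 to 36572150, minus strand, GRCm38). Its level was 103, 85.5 and 150 CPM in LSK controls and 77.3, 61.4 and 60.4 CPM in LSK libraries after the agonist. In GMP it was 30.1, 30.03 and 40.9 CPM in controls and 44.2, 36.2 and 41.1 CPM after the agonist. No GMP library reached the lowest LSK library. The difference in controls was −1.76 ± 0.25 (log2 ± SE, edgeR adjusted p = 0.00103), a 3.39-fold lower level, and after the agonist −0.76 ± 0.25 (edgeR adjusted p = 0.0787).

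Ccnb1 encodes cyclin B1, the partner of CDK1 (chromosome 13, 100778650 to 100786570, minus strand). It was at 138, 151 and 208 CPM in LSK controls and 141, 174 and 105 CPM in treated LSK libraries. GMP controls had 50.8, 71.5 and 60.1 CPM and treated GMP libraries 71.98, 55.2 and 67.7 CPM. The cell types did not overlap in either condition. It was called in both, at −1.47 ± 0.25 in controls (edgeR adjusted p = 0.00338) and −1.17 ± 0.25 after the agonist (adjusted p = 0.0121). Without LSK agonist library 2 or without GMP agonist library 2 the latter call was lost.

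Plk1, polo-like kinase 1, which promotes mitotic entry, spindle assembly and cytokinesis, was measured at 33.4, 33.8 and 55.5 CPM in LSK controls and 20.4, 14.4 and 26.4 CPM in treated LSK libraries. In GMP controls it was 4.16, 16.1 and 10.6 CPM and in treated GMP libraries 12.4, 9.88 and 20.3 CPM. The control groups were apart and the treated groups overlapped. In controls the difference was −2.03 ± 0.47 (edgeR adjusted p = 0.0155), a call lost without LSK control library 3 or without GMP control library 3, and after the agonist it was −0.56 ± 0.46 (adjusted p = 0.51).

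Aurka, Aurora kinase A, which matures the centrosomes and spindle poles, had the highest mean level of the kinase and cyclin group. LSK controls gave 144, 114 and 194 CPM and treated LSK libraries 160.2, 151 and 100.2 CPM. In GMP controls its level was 76.8, 95.3 and 61.1 CPM, and in treated GMP libraries 96.1, 94.7 and 82.8 CPM. The cell types were apart in both conditions. Aurka was called in controls, at −0.97 ± 0.26 (edgeR adjusted p = 0.0322), and leaving out any 1 of 5 libraries ended that call (LSK control 3, GMP control 1 or 3, GMP agonist 1 or 2).

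Cdc25c, the phosphatase that activates CDK1, was at 29.3, 30.96 and 45.2 CPM in LSK controls and 35.5, 29.4 and 20.2 CPM in treated LSK libraries. GMP controls had 15.2, 15.6 and 21.1 CPM and treated GMP libraries 11.9, 7.89 and 16.1 CPM. The cell types did not overlap in either condition, and the call was made after the agonist, at −1.3 ± 0.36 (edgeR adjusted p = 0.0383). Of the remaining members of the kinase and cyclin group, Cdk1 averaged 26.98 ± 10.1 CPM in control LSK libraries and 31.2 ± 7.74 CPM in control GMP libraries (SD, n = 3 each). Its RNA therefore did not separate the cell types. Ccnb2 averaged 21.9 ± 6.36 and 16.2 ± 12.3 CPM, and Ccnf, cyclin F of a ubiquitin ligase, 57.2 ± 19.3 and 23.5 ± 18.8 CPM in the same groups.

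Both genes of chromosome structure were close in control LSK and GMP libraries. Mki67 encodes Ki-67, the proliferation antigen that coats mitotic chromosomes (chromosome 7, 135689784 to 135716361, minus strand). It was measured at 416, 248 and 315 CPM in LSK controls and 371, 395 and 285 CPM in treated LSK libraries. In GMP it was 178, 363 and 258 CPM in controls and 129, 125 and 127 CPM after the agonist, so the treated GMP libraries lay below all 9 others. The cell type difference was −0.31 ± 0.25 in controls (edgeR adjusted p = 0.497) and −1.52 ± 0.25 after the agonist (adjusted p = 0.0026), a 2.86-fold lower level.

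Top2a was at 377, 119 and 315 CPM in LSK controls and 246, 292 and 203 CPM in treated LSK libraries. GMP controls had 215, 332 and 242 CPM and treated GMP libraries 174, 168 and 190.4 CPM. LSK control library 2 was the lowest of the 12, and the treated groups did not overlap between cell types. It was called in neither comparison of cell types.

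None of the 5 spindle checkpoint genes was called. With 11.5% of all genes called in controls and 9.42% after the agonist, that count is near the background. The median difference of the 5 was −0.55 in controls and −0.49 after the agonist. Bub1, a checkpoint kinase at the kinetochore, had the highest mean level among them. It was measured at 67.97, 171 and 127 CPM in LSK controls and 104, 107 and 95.7 CPM in treated LSK libraries. GMP controls gave 68.9, 69.3 and 66.6 CPM and treated GMP libraries 61.7, 57.9 and 69.8 CPM. The LSK controls spread widely and their lowest library fell among the GMP controls, whereas the treated groups did not overlap. Bub1b, which encodes the checkpoint protein BUBR1, was the steadiest member in LSK controls, with a coefficient of variation of 3.66%.

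Of the 7 centromere and kinetochore genes, all had a fitted level below that of LSK-labelled cells in both conditions. Cenpa, the histone H3 variant that marks the centromere, was the member with the smallest p in both comparisons (chromosome 5, 30666777 to 30674830, plus strand). LSK controls had 288, 389 and 370.1 CPM and treated LSK libraries 389, 321 and 283 CPM. GMP controls had 93.5, 116 and 139 CPM and treated GMP libraries 107, 105 and 98.2 CPM. Every GMP library lay below every LSK library, by 3.05-fold in controls (−1.61 ± 0.21, edgeR adjusted p = 0.000602) and by 3.3-fold after the agonist (−1.72 ± 0.22, adjusted p = 0.000363).

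Cenpf, a large kinetochore protein that accumulates in G2, was measured at 86.8, 53.9 and 79.8 CPM in LSK controls and 96.7, 129 and 74.4 CPM in treated LSK libraries. In GMP controls its level was 49.8, 76.1 and 55.3 CPM, and in treated GMP libraries 22.9, 22.2 and 29.5 CPM. The control groups overlapped, and the treated GMP libraries lay below all others. Its difference between cell types was −0.3 ± 0.27 in controls (edgeR adjusted p = 0.548) and −2.07 ± 0.28 after the agonist (adjusted p = 0.000616), a 4.19-fold lower level.

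Cenpe, the kinesin that carries chromosomes to the spindle equator, was at 189, 165 and 152 CPM in LSK controls and 186, 306 and 146 CPM in treated LSK libraries. GMP controls had 125, 171 and 99.3 CPM and treated GMP libraries 91.6, 80.96 and 86.97 CPM. Its pattern was like that of Cenpf, with overlapping controls and treated libraries apart, and the difference after the agonist was −1.36 ± 0.28 (edgeR adjusted p = 0.0091). Ndc80, Nuf2, Spc24 and Spc25, the subunits of the NDC80 complex that grips microtubules, were not called in either comparison.

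The chromosomal passenger complex, which corrects faulty attachments and acts in cytokinesis, held no called member among 3. With 11.5% of all genes called in controls and 9.42% after the agonist, that count is near the background. Birc5, the survivin subunit of the complex, had the highest mean level of all 38 genes without correction for length. LSK controls gave 297, 190.3 and 491 CPM and treated LSK libraries 555, 509 and 270 CPM. GMP controls gave 223, 189 and 268 CPM and treated GMP libraries 276, 227 and 191 CPM. The spread among LSK libraries was wide, and the control groups overlapped. Aurkb, the kinase of the complex, averaged 197 ± 83.3 CPM in control LSK libraries and 224 ± 69.9 CPM in control GMP libraries (SD, n = 3 each).

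Among the spindle motors and microtubule-binding proteins, all 5 had fitted levels below those of LSK-labelled cells in both conditions. Hmmr encodes RHAMM, a spindle-pole protein (chromosome 11, 40701395 to 40733422, minus strand). It was measured at 150.4, 163 and 182 CPM in LSK controls and 112, 115 and 114 CPM in treated LSK libraries. GMP controls had 35.8, 79.2 and 68.2 CPM and treated GMP libraries 53.1, 44.7 and 46.4 CPM. The 6 GMP libraries lay below the 6 LSK libraries, and the treated LSK libraries lay below the LSK controls. It was called in controls, at −1.46 ± 0.25 (edgeR adjusted p = 0.00278), and after the agonist, at −1.28 ± 0.25 (adjusted p = 0.00632).

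Tpx2, which activates Aurora A on the spindle, gave 165, 226 and 184 CPM in LSK controls and 111, 108 and 94.1 CPM in treated LSK libraries. In GMP controls its level was 71.4, 131 and 105 CPM and in treated GMP libraries 81.3, 87.7 and 91.9 CPM. Every GMP library lay below every LSK library of the same condition, though narrowly after the agonist. In controls the difference was −0.93 ± 0.22 (edgeR adjusted p = 0.0185), lost without LSK control library 2 or 3 or GMP control library 1 or 3, and after the agonist −0.31 ± 0.22 (adjusted p = 0.448). Nusap1, which bundles spindle microtubules, was at 63.3, 58.6 and 102 CPM in LSK controls, 119.5, 208 and 45.4 CPM in treated LSK libraries, 34.4, 77.6 and 45.9 CPM in GMP controls and 36.9, 49.9 and 28.7 CPM in treated GMP libraries. LSK agonist library 3 was far below the other treated LSK libraries and overlapped the treated GMP libraries, beside the call after the agonist of −1.76 ± 0.5 (edgeR adjusted p = 0.0447).

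The 6 genes of the central spindle and cytokinesis were mixed. Kif20a, a kinesin of the central spindle, gave 112, 172 and 117 CPM in LSK controls and 61.1, 40.3 and 50.4 CPM in treated LSK libraries. GMP controls had 10.04, 64.6 and 24.1 CPM and treated GMP libraries 42.4, 40.3 and 52.2 CPM. The controls were apart and the treated libraries overlapped. The difference was −2.07 ± 0.49 in controls (edgeR adjusted p = 0.017), lost without LSK control library 2 or GMP control library 3, and −0.21 ± 0.47 after the agonist (adjusted p = 0.853). Its exons share 1271 bases with those of Cdc23 on the opposite strand, and since the strand setting of the counting is not given, reads of the pair cannot be told apart. Likewise Ccna2 overlaps Exosc9 by 510 bases, Prc1 overlaps Rccd1 by 911, Ube2c overlaps Tnnc2 by 592, Nusap1 overlaps Oip5 by 172 and Cdc20 overlaps Elovl1 by 53, and Plk1 and Cdc25c overlap predicted genes by 156 and 623 bases, each on the opposite strand. In controls, Cdc23 was also called lower in GMP, at −1.12 ± 0.32 (edgeR adjusted p = 0.0416).

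Prc1, which crosslinks the microtubules of the central spindle, was measured at 35.6, 38.98 and 55.3 CPM in LSK controls and 34.96, 39.95 and 28.9 CPM in treated LSK libraries. In GMP controls it was 20.4, 25.5 and 9.78 CPM and in treated GMP libraries 15.4, 16.1 and 20.6 CPM. The cell types did not overlap, and the difference in controls was −1.25 ± 0.36 (edgeR adjusted p = 0.0401). Anln, the anillin of the cleavage furrow, gave 78.1, 84.1 and 70.5 CPM in LSK controls, 76.9, 75.2 and 45.9 CPM in treated LSK libraries, 29.3, 53.2 and 33.2 CPM in GMP controls and 27.6, 14.5 and 39.3 CPM in treated GMP libraries. It was also apart in both conditions and was called after the agonist, at −1.35 ± 0.35 (edgeR adjusted p = 0.03), a call lost without LSK agonist library 1 or 2 or GMP agonist library 1 or 2.

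Racgap1, which forms the centralspindlin complex with Kif23, had the highest mean level of the cytokinesis genes. It was measured at 100.5, 109 and 102 CPM in LSK controls and 55.4, 103 and 63.98 CPM in treated LSK libraries. GMP controls gave 74.8, 109 and 80.8 CPM and treated GMP libraries 86.1, 64.1 and 81.6 CPM. The groups overlapped, and Racgap1 was called in no comparison. Kif23 had a fitted level that was higher in GMP in both conditions, at 12.8 ± 3.73 CPM in control LSK libraries and 16.3 ± 7.29 CPM in control GMP libraries (SD, n = 3 each).

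The anaphase ubiquitination genes were each called in one of the comparisons, against 11.5% of all genes in controls and 9.42% after the agonist. Cdc20 (chromosome 4, 118432901 to 118437352, minus strand) was at 279.5, 333 and 362 CPM in LSK controls and 168, 225 and 187 CPM in treated LSK libraries. GMP controls had 223, 189.8 and 154 CPM and treated GMP libraries 161, 175 and 185 CPM. Only the LSK controls stood apart, above the 9 other libraries. In controls the cell type difference was −0.8 ± 0.2 (edgeR adjusted p = 0.0254), lost without LSK control library 2 or 3 or GMP control library 2 or 3, and after the agonist it was −0.2 ± 0.2 (adjusted p = 0.625).

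Ube2c, the ubiquitin-conjugating enzyme of the anaphase-promoting complex, gave 113, 76.97 and 167 CPM in LSK controls and 276, 260 and 105 CPM in treated LSK libraries. In GMP controls its level was 76.4, 70.1 and 57.6 CPM and in treated GMP libraries 54.8, 39.1 and 34.8 CPM. The order of groups was treated GMP, control GMP, then the LSK libraries. Its difference was −0.82 ± 0.38 in controls (edgeR adjusted p = 0.195) and −2.38 ± 0.4 after the agonist (adjusted p = 0.00265), the lowest fitted value of any member.

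In LSK-labelled cells, none of the 38 members passed the edgeR test for the agonist, and the smallest p was that of Kif20a. Over all 13922 genes tested, edgeR called 0.338%, all of them higher and none lower. At an unadjusted p below 0.05, 8 members passed (21.1%), against 11.8% of all genes, and DESeq2 called 2 members (5.26%) against 3.93% of all genes. Fitted differences were below 0 for 22 of 38 members, compared with 48.8% of all genes, with a median of −0.09 for the members and 0.02 for all genes. Scaling by library size alone moved the median of all genes to −0.12.

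Kif20a had the smallest p of the members in this comparison. The treated libraries, at 61.1, 40.3 and 50.4 CPM, lay below the controls, at 112, 172 and 117 CPM, and the fitted difference was −1.27 ± 0.27 (edgeR adjusted p = 0.164). DESeq2 gave it an adjusted p of 0.00101, and in the authors' deposited table its log2 fold change was −1.3 with an adjusted p of 0.00113. That table called 2 members, Kif20a and Tpx2 (5.26%), and 5.05% of all genes with an adjusted p. Over the alternatives run, the adjusted p of Kif20a ranged from 0.00101 to 0.524. Cdc23, whose exons overlap those of Kif20a, averaged 71.8 ± 15.9 CPM in LSK controls and 43.9 ± 13.6 CPM after the agonist (SD). The part of Cdc23 reads in the Kif20a values was not tested. Next came Tpx2, at −0.74 ± 0.22 (edgeR adjusted p = 0.299), with an adjusted p of 0.036 in DESeq2, of 0.036 to 0.712 over the alternatives run and of 0.0237 in the authors' deposited table. Then came Cdc20, at −0.61 ± 0.22 (edgeR adjusted p = 0.359).

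For 10 of 38 members (26.3%) all treated LSK libraries lay below all LSK controls, and for 0 all lay above. Over all genes the shares were 12.7% below and 7.13% above. The 10 were Ccna2, Ccnf, Plk1, Bub1b, Cdc20, Nuf2, Incenp, Kif20a, Tpx2 and Hmmr. With levels scaled by TMM, a choice made after seeing the data, 8 of them remained (21.1%), without Bub1b and Nuf2, against 9.22% of all genes, and 0 lay above, against 9.68%. All 6 genes of the central spindle and cytokinesis had fitted values below 0, with a median of −0.26. The kinetochore group had a median of 0.5 and the chromosomal passenger complex one of 0.6, so the members did not move one way.

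Summed levels of some marker lists differed between treated and control LSK libraries, although edgeR called no gene of the lists given here for the agonist. The 12 megakaryocyte and platelet markers summed to between 160.4 and 364 CPM in LSK controls and to between 20.6 and 60.7 CPM after the agonist, where Treml1 and Ppbp were at 0. Erythroid markers overlapped, between 9782 and 14538 CPM in controls and between 11439 and 15503 CPM after the agonist. The 11 stem cell markers summed to between 363 and 574 CPM in controls and to between 260.3 and 315 CPM after the agonist, without overlap. Fitted differences lay below 0 for 6 of the 9 tested. Within that list Kit averaged 274 CPM in controls and 155 CPM after the agonist, whereas Ly6a averaged 0.609 and 6.71 CPM. The 11 granulocyte-monocyte progenitor markers overlapped, between 493 and 4249 CPM in controls and between 1353 and 11088 CPM after the agonist, with a median fitted difference of 1.3 on the log2 scale and none called. No marker of these last 3 lists was at 0 in all libraries of an LSK group. The part of any of these lists in the members' values was not tested.

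**Figure D4:**
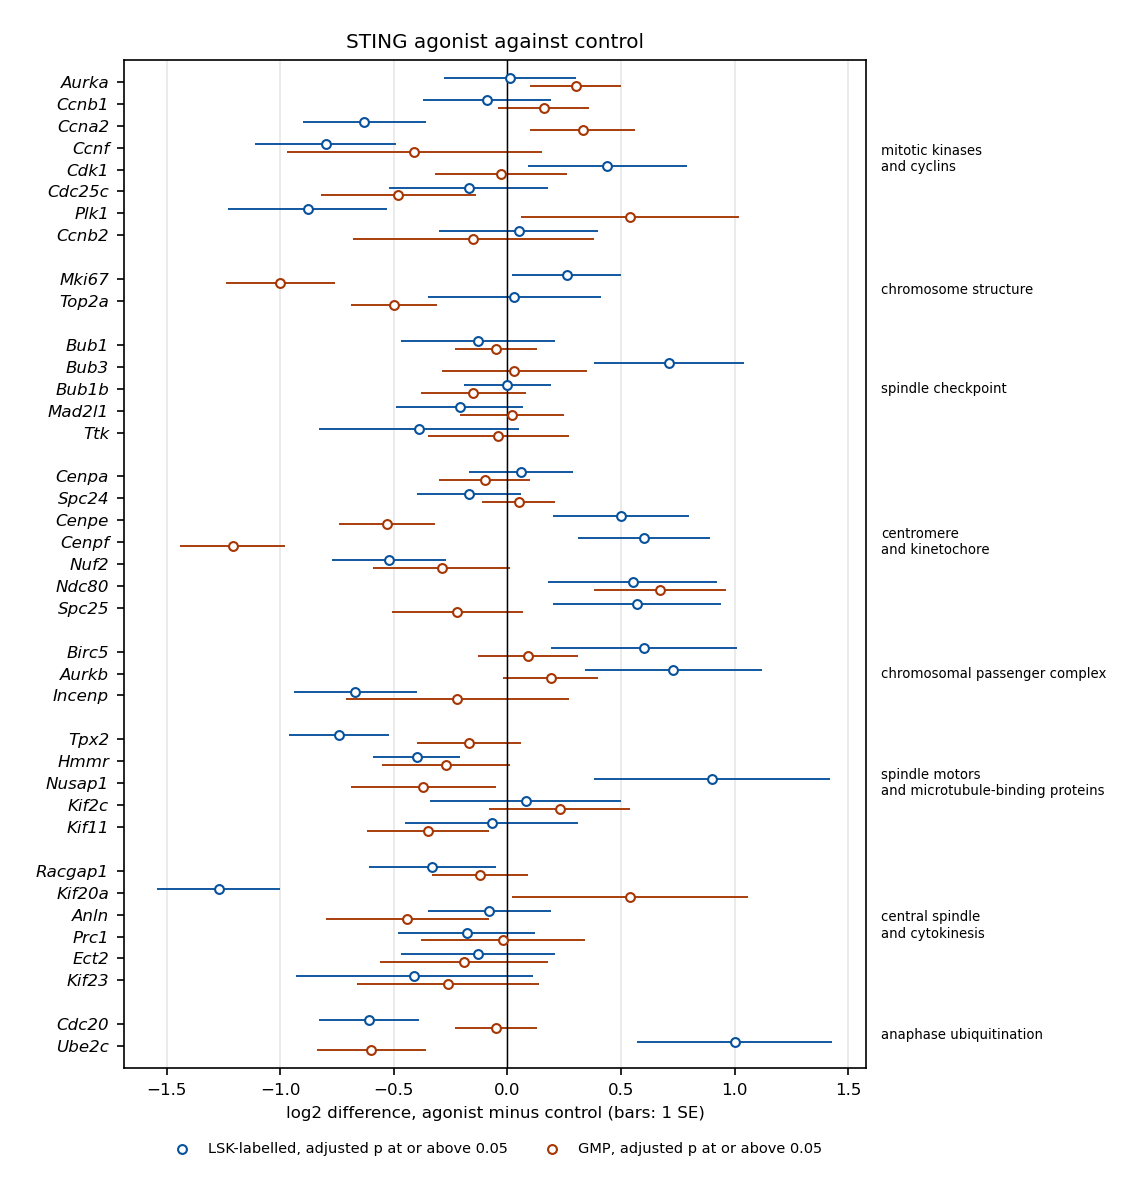
Fitted log2 difference between agonist and control libraries for each member, in LSK-labelled cells and in GMP, with bars of 1 standard error; no member is called in either. Kif20a lies farthest left in LSK-labelled cells, at −1.27, and Cenpf farthest left in GMP, at −1.21.

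In GMP too, none of the 38 members passed the edgeR test for the agonist, and the lowest fitted values were those of Cenpf and Mki67. The test called 0.426% of the 15027 genes, 0.386% higher and 0.0399% lower. At an unadjusted p below 0.05, 6 members passed (15.8%), against 9.14% of all genes, and DESeq2 called 2 members (5.26%) against 2.31% of all genes. Fitted differences lay below 0 for 26 of 38 members, compared with 53.7% of all genes. The medians were −0.14 for the members and −0.04 for all genes.

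Cenpf and Mki67 had the smallest p. Cenpf lay between 22.2 and 29.5 CPM in treated GMP libraries and between 49.8 and 76.1 CPM in GMP controls, a fitted difference of −1.21 ± 0.23 (edgeR adjusted p = 0.0765). DESeq2 gave an adjusted p of 0.000281 and the authors' deposited table a log2 fold change of −1.21 with an adjusted p of 7.55e-05, and over the alternatives run the adjusted p ranged from 0.000281 to 0.452. Mki67 was measured at 129, 125 and 127 CPM after the agonist and at 178, 363 and 258 CPM in controls, with a difference of −1.0 ± 0.24 (edgeR adjusted p = 0.177). The authors' deposited table called 2 members, Cenpf and Mki67 (5.26%), and 2.69% of all genes with an adjusted p. For Mki67 the adjusted p was 0.00599 in DESeq2, 0.00224 to 0.62 over the alternatives run and 0.00873 in the authors' deposited table, where the log2 fold change was −0.99. Then came Top2a, at −0.5 ± 0.19 (edgeR adjusted p = 0.462).

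For 5 of 38 members (13.2%) all treated GMP libraries lay below all GMP controls: Cenpf, Mki67, Top2a, Cenpe and Ube2c. Over all genes the share was 10.3%. With TMM-scaled levels the same 5 lay below, against 8.7% of all genes, and Ndc80 above, against 8.44%. Ndc80 alone lay above in every treated library (2.63% of the members and 6.29% of all genes), at 38.5, 40.5 and 36.2 CPM after the agonist and 35.9, 21.1 and 18.9 CPM in controls, with a fitted difference of 0.67 ± 0.29 (edgeR adjusted p = 0.537). Megakaryocyte and platelet markers summed to between 47.7 and 149 CPM in GMP controls and to between 31.2 and 54.8 CPM after the agonist, and their part in these values was not tested.

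For the difference of the agonist response between the cell types, the edgeR interaction test called no member and 0 of 16857 genes. A test without any call cannot show that the responses of the members were alike. At an unadjusted p below 0.05, 7 members passed (18.4%), against 10.1% of all genes, and DESeq2 called 1 member, Cenpf, with an adjusted p of 0.00307, against 1.13% of all genes. Fitted differences lay below 0 for 18 of 38 members (47.4%), against 49.7% of all genes. Among the most negative differences, GMP effect minus LSK effect, were those of Cenpf at −1.77 ± 0.38 (edgeR adjusted p = 0.348), Ube2c at −1.56 ± 0.54 (adjusted p = 0.414), Nusap1 at −1.22 ± 0.69 (adjusted p = 0.553) and Mki67 at −1.21 ± 0.35 (adjusted p = 0.374). Positive ones were led by Kif20a at 1.86 ± 0.67 (edgeR adjusted p = 0.421) and Plk1 at 1.47 ± 0.65 (adjusted p = 0.477), with Ccna2 at 1.01 ± 0.35 (adjusted p = 0.417). For Kif20a the exon overlap with Cdc23 applies here as well. Within the role groups both signs occurred: 4 of the 7 centromere and kinetochore genes and 3 of the 8 in the kinase and cyclin group had fitted values below 0.

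Spread within groups differed. The median coefficient of variation of the members was 26.4% in LSK controls, 22.1% in treated LSK libraries, 30.2% in GMP controls and 15.7% in treated GMP libraries. The members of a library tended to deviate together: LSK control library 3 had 30 of 38 members above its group's mean and GMP control library 2 had 28, whereas GMP control library 1 had 9 and LSK agonist library 3 had 9. Median deviations of the libraries from their group mean reached 0.34 on the log2 scale in GMP control library 2 and −0.23 in GMP control library 1.

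**Figure D5:**
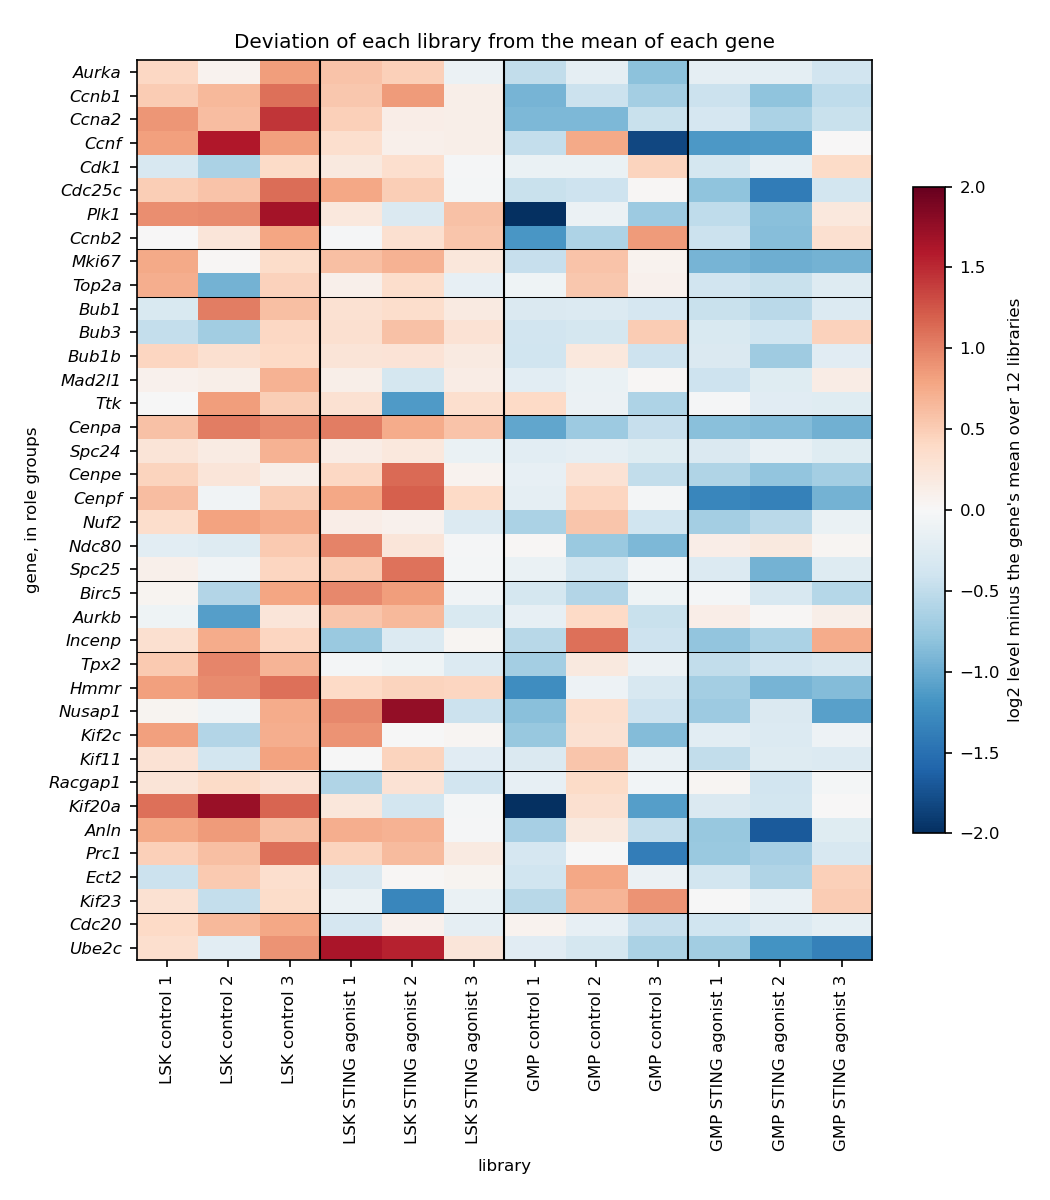
Heat map of the log2 level of each member minus that member's mean over the 12 libraries, with genes in rows by role and libraries in columns by group; red is above the gene's mean and blue below. Cenpa and Hmmr are red in all LSK columns and blue in all GMP columns, while Cdk1 and Kif23 show no such split.

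Across the 12 libraries the median Pearson correlation of log2 levels over the 703 pairs of members was 0.46, and 0.27 for deviations from the group means. These are descriptions of points that share libraries, depth and cell type. The most alike pair was Cenpf and Mki67, at 0.96, followed by Bub1b and Anln at 0.95. By the median correlation with the other members, Ccnb1 was most typical at 0.7, followed by Bub1b at 0.69, and Kif23 was least typical at −0.08, followed by Aurkb at 0.06 and Cdk1 at 0.07.

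The wider mitotic machinery, a list of 126 further genes of which 125 were tested, had fitted levels that lay mostly below 0 in GMP against LSK-labelled cells. In controls, edgeR called 18 lower in GMP and 0 higher, against 6.98% and 4.55% of all genes, and 94 fitted values lay below 0, against 47.9% of all genes, with a median of −0.36. After the agonist, 25 were called lower and 1 higher, against 4.85% and 4.57% of all genes, and 99 lay below 0, against 49.5% of all genes, with a median of −0.49. Dlgap5, a spindle protein, averaged 71.3 ± 5.54 CPM in control LSK libraries and 29.5 ± 2.94 CPM in control GMP libraries (SD, n = 3 each), a difference of −1.28 ± 0.22 (edgeR adjusted p = 0.00355). Aspm, a spindle-pole protein, averaged 73.8 ± 25.5 CPM in treated LSK libraries and 10.4 ± 1.27 CPM in treated GMP libraries, a difference of −2.88 ± 0.38 (adjusted p = 0.000603). The one gene called higher in GMP was Cep55, a protein of abscission, at 2.28 ± 0.61 (adjusted p = 0.0358). For the agonist, edgeR called 0 of the 125 in either cell type, with a median of 0.17 in LSK-labelled cells and −0.03 in GMP.

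Of the 10 regulators of this programme (subunits of DREAM, B-MYB and FOXM1), 1 was called in each comparison of cell types, E2f4, a repressor subunit of DREAM. Over all genes 11.5% were called in controls and 9.42% after the agonist, so this count is near the background. E2f4 averaged 209 ± 37.3 CPM in control LSK libraries and 82.7 ± 1.99 CPM in control GMP libraries (SD, n = 3 each). Its difference was −1.35 ± 0.2 in controls (edgeR adjusted p = 0.00122) and −1.34 ± 0.2 after the agonist (adjusted p = 0.00125). For the agonist edgeR called none of the 10 in either cell type.

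Genes of the preceding phases, 35 of DNA replication and the G1/S transition, were set beside the mitotic genes. In controls edgeR called 7 lower in GMP and 0 higher, against 6.98% and 4.55% of all genes, with a median of −0.47. After the agonist it called 3 lower and 0 higher, against 4.85% and 4.57% of all genes, with a median of 0.02. Ccne1, the cyclin E1 that starts S phase, averaged 391 ± 31.8 CPM in LSK controls, 171 ± 29.3 CPM in treated LSK libraries, 34.6 ± 14.7 CPM in GMP controls and 70.1 ± 7.43 CPM in treated GMP libraries (SD, n = 3 each). It was lower in GMP in controls, at −3.53 ± 0.28 (edgeR adjusted p = 1.45e-05), and after the agonist, at −1.33 ± 0.26 (adjusted p = 0.00677). None of the 35 was called for the agonist itself in either cell type, where the medians were −0.35 in LSK-labelled cells and 0.16 in GMP. Of 13 tested inhibitors of the cell cycle, 1 was called for the agonist in LSK-labelled cells, against 0.338% of all genes, with a list median of 0.08. This was Gadd45g, a stress-induced growth arrest gene, higher after the agonist, from 39.7 ± 6.21 to 139 ± 17.1 CPM (1.95 ± 0.22, edgeR adjusted p = 0.012). In GMP 0 of the 13 were called, with a median of −0.18, and Gadd45g averaged 23.8 ± 2.52 CPM in controls and 19.8 ± 5.5 CPM after the agonist. Any link to the mitotic genes was not tested.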

How the data were processed

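Gene counts, 1 table per cell type, were deposited by the authors as whole numbers per Ensembl gene and library, per the file headers. The authors' tables also hold a base mean (a signal), fold ratios, a log2 fold change and p-values with adjusted p-values. Of these the deposited log2 fold change and adjusted p are quoted. Aligner, counter and strand setting were not given in the sources used here. Build mm9 is named in the submitters' processing notes, whereas 94.6% (LSK) and 94.8% (GMP) of matched gene positions were those of GENCODE M21, so positions are given as GRCm38. The tables hold 29736 LSK genes and 31042 GMP genes, each table with 1 empty line that was left out.

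Counts were tested with edgeR 4.0.16 (TMM factors, filterByExpr, quasi-likelihood test, adjusted p below 0.05) in R 4.3.3, within each cell type for the agonist and jointly over 12 libraries for the interaction and for GMP against LSK. The SE is the log2 difference divided by the square root of F. Common biological variation came to a coefficient of 74% in LSK, 54% in GMP and 80.2% jointly. DESeq2 1.42.0, limma-voom (limma 3.58.1), other scalings and filters, a replicate block and leaving out each library were alternatives. The agonist fits were also run on simulated counts that gave every gene the same variation, and no result here rests on that run. CPM use the sum of gene counts. Correlations use log2(CPM + 0.5). The reads carry no molecular identifiers. Members and lists were chosen with earlier results of these data known. Libraries are given one by one for members called in a comparison of cell types, the 3 with the smallest p for the agonist in each cell type, and the member with the highest level in each role group.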

Additional observations from a re-analysis of the deposited data

How the results depend on the processing

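The members whose tests were repeated (those called between cell types and those with the smallest p for the agonist or the interaction) kept their direction under every alternative run. In both agonist comparisons 0 members were called under every scaling, the stricter filter, limma-voom, the joint fit and each omission of 1 library (range 0 to 0). Without a filter on low counts 2 were called in LSK-labelled cells (Kif20a, and Ube2c as higher) and 2 in GMP (Cenpf and Mki67), and DESeq2 called 2 in each. DESeq2 called 1 in the interaction, where leaving out a library gave 0 to 0. The cause was not tested. For GMP against LSK the calls ranged from 4 to 12 in controls and from 6 to 12 after the agonist when 1 library was left out, and the members' median from −0.73 to −0.4 and from −0.76 to −0.51. For the agonist the median ranged from −0.19 to 0.07 in LSK-labelled cells, from −0.21 to 0.0 in GMP, and from −0.11 to 0.17 for their difference. DESeq2 size factors moved the median of all genes in controls from 0.04 to 0.12. With the replicate number as a block, 0 members were called in each agonist comparison and in the interaction, 9 in controls and 8 after the agonist. Same-numbered libraries correlated by −0.018 to 0.204 in their deviations and in no comparison did every same-numbered pair exceed 0.1. Each library was looked at once within its cell type and once within its treatment, which gave 24 looks. In 17 of these the library was closest to its own number. That held in 6 of 6 after the agonist, 5 of 6 in controls, 3 of 6 within LSK and 3 of 6 within GMP. This is a hint of pairing from the data that the labels do not state, so the fit without the block was kept. Prc1 also lost its call with DESeq2 size factors and without a filter, Cdc25c without a filter, Nusap1 with limma-voom, and Prc1, Nusap1 and Anln with the block. The members' exons overlap another gene in 10 of 38 cases, 8 of them on the opposite strand.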
